A study of Homo sapiens with 21 samples.

Results

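The AP-2 transcription factor genes were represented by 177 accessible sites among the 367900 consensus sites of the series. A site was counted as an AP-2 site when its nearest gene in the deposited annotation was TFAP2A, TFAP2B, TFAP2C, TFAP2D or TFAP2E. Of these sites, 72 lay nearest to TFAP2B, 63 to TFAP2D and 34 to TFAP2C, whereas TFAP2A and TFAP2E had 4 each. Nearness was the only link between a site and a gene here, and the gene that a site regulates may be another. Each site is named here by that gene and by its distance from the annotated transcription start site (TSS), with positive distances downstream.

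Accessibility was profiled by ATAC-seq, in which the transposase Tn5 inserts adapters into open DNA, so that reads over a site rise with its accessibility. The cells were of the neuroblastoma line SK-N-BE(2), an established human line, and were collected 72 h after lentiviral transduction of short hairpin RNAs (shRNAs). The 21 libraries fell into 7 groups of 3, all transduced: Control (a non-silencing control in the study), shARID1A.2 and shARID1A.4 against ARID1A, shARID1B.2 and shARID1B.3 against ARID1B, and the combinations shARID1A/B.2.3 and shARID1A/B.4.2 against both genes. ARID1A and ARID1B are structural subunits of BAF, a complex that uses ATP to move nucleosomes and keep chromatin open. By their names, the combination 2.3 joins the shRNAs of shARID1A.2 and shARID1B.3, and the combination 4.2 joins those of shARID1A.4 and shARID1B.2. Nothing in the labels says whether the 3 libraries of a group came from separate transductions, so the tests measure the spread between these libraries, which may be technical. Silencing acts on RNA, and its efficiency is not read out by accessibility.

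Libraries held from 16140029 to 44472230 reads in sites, and the deepest were replicates 1 and 2 of shARID1B.3 and of shARID1A/B.2.3. The share of reads that lay in promoter sites was 20.0% to 20.6% in Control libraries, 20.9% to 24.1% with single shRNAs and 23.4% to 25.1% in the combinations. The site nearest the TSS of each of 7 adrenergic neuroblastoma markers had between 2.43 (TH) and 43.9 (HAND2) CPM (reads at the site, scaled to the library total) in Control, and the corresponding values of 5 mesenchymal markers ran from 7.63 (FOSL1) to 52.7 (VIM). For genes of blood or epithelial cells these values were 1.26 (PTPRC), 2.75 (CDH1) and 6.62 (EPCAM). The adrenergic markers of the line were therefore accessible, and the lowest of them lay below some of the markers of cells not in culture.

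AP-2 proteins are transcription factors that bind GC-rich DNA as dimers through a helix-span-helix domain. TFAP2A, TFAP2B and TFAP2C act at the neural plate border and in the neural crest, the embryonic source of the sympathetic nervous system from which neuroblastoma arises. TFAP2B is also active in developing sympathetic neurons, and TFAP2C in trophoblast and germ cells. TFAP2D and TFAP2B are neighbours on chromosome 6.

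The sequences of 6 sites on which the results turn are shown, each as the central 300 bases of the site on the plus strand of GRCh38, because 5 of them lost accessibility after combined silencing and the other moved in opposite directions with the 2 combinations. Capitals mark matches, on either strand, to the letters of 4 motifs. The motif of AP-2 proteins was searched as GCCNNNGGC. That of AP-1, a dimer of FOS and JUN proteins that works with BAF at distal enhancers, was searched as TGANTCA. The E-box, read by helix-loop-helix factors such as the neuroblastoma regulator HAND2, was searched as CAGCTG. The motif of GATA factors, of which GATA3 is a regulator of noradrenergic neurons, was searched as AGATAA. No motif is contained in another, though neighbouring matches may overlap.
TFAP2B +114 kb, chr6:50936107-50936406: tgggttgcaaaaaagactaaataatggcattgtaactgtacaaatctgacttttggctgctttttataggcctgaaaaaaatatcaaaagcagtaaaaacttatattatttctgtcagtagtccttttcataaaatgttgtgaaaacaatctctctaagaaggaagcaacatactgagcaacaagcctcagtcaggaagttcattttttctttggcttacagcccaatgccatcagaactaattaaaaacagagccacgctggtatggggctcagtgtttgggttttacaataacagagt
TFAP2B +9.29 kb, chr6:50831164-50831463: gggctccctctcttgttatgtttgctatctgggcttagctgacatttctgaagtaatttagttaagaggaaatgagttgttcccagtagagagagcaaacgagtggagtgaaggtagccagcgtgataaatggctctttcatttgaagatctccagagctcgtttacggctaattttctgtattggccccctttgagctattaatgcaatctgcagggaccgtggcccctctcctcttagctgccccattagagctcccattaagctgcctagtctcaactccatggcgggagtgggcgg
TFAP2B +13.5 kb, chr6:50835343-50835642: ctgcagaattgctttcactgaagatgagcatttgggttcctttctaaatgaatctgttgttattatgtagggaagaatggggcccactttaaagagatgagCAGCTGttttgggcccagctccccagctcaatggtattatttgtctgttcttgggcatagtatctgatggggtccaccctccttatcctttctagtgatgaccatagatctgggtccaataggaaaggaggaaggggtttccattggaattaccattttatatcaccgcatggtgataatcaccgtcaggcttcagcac
TFAP2B +297 kb, chr6:51119115-51119414: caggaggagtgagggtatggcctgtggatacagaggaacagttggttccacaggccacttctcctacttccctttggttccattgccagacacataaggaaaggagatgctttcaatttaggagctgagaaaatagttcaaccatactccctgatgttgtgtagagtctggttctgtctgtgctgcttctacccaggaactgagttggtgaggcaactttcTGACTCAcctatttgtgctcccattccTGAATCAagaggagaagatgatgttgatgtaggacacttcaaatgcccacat
TFAP2C +106 kb, chr20:56735163-56735462: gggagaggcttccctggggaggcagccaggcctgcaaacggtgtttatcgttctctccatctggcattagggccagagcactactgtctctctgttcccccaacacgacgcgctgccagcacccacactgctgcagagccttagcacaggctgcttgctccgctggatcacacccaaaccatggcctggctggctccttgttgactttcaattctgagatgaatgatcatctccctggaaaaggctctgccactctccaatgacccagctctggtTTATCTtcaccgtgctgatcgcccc
TFAP2D -13.9 kb, chr6:50699500-50699799: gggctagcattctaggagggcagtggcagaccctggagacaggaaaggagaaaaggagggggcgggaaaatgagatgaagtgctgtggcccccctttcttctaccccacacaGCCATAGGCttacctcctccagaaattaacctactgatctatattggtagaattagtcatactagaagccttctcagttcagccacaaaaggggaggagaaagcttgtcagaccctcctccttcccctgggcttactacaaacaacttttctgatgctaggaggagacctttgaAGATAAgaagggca
The central windows of TFAP2B +114 kb and +9.29 kb held none of these letters, that of TFAP2B +297 kb held 2 AP-1 matches, and that of TFAP2D -13.9 kb held 1 AP-2 and 1 GATA match. Over all 177 AP-2 sites, 10.2% held an AP-2 match in this window, against 9.65% of 367899 consensus sites with sequence. The window leaves out most of the wider sites. Over its whole length of 2145 bases, TFAP2B +114 kb held 1 AP-1 and 2 GATA matches. The whole of TFAP2B +297 kb held 1 AP-2, 5 AP-1 and 3 GATA matches, and that of TFAP2B +9.29 kb held 0. A match to letters is a description of the sequence and not evidence of binding.

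The AP-2 sites were mostly distal. Of the 177 sites, 155 were intergenic, 14 intronic, 4 at promoters, 3 exonic and 1 at a gene end, and 110 lay over 100 kb from the TSS. Most were weak, with 99 under 1 CPM in Control and 38 at 2 CPM or more. Relative to site length, the most accessible of the described sites in Control were TFAP2B -0.129 kb at 12.2 CPM per kb and TFAP2B +28.3 kb, also at 12.2 CPM per kb, followed by TFAP2B +8.18 kb at 11.5, TFAP2B +9.29 kb at 10.5 and TFAP2B +114 kb at 9.87 CPM per kb. The wide promoter site TFAP2A +0.144 kb (5642 bases) had 4.95 CPM per kb, and TFAP2E +7.49 kb had 3.15 CPM per kb. The filter on low counts left 170 AP-2 sites for testing, and the 7 sites removed lay near TFAP2B (3), TFAP2C (3) and TFAP2D (1).

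**Figure D1:**
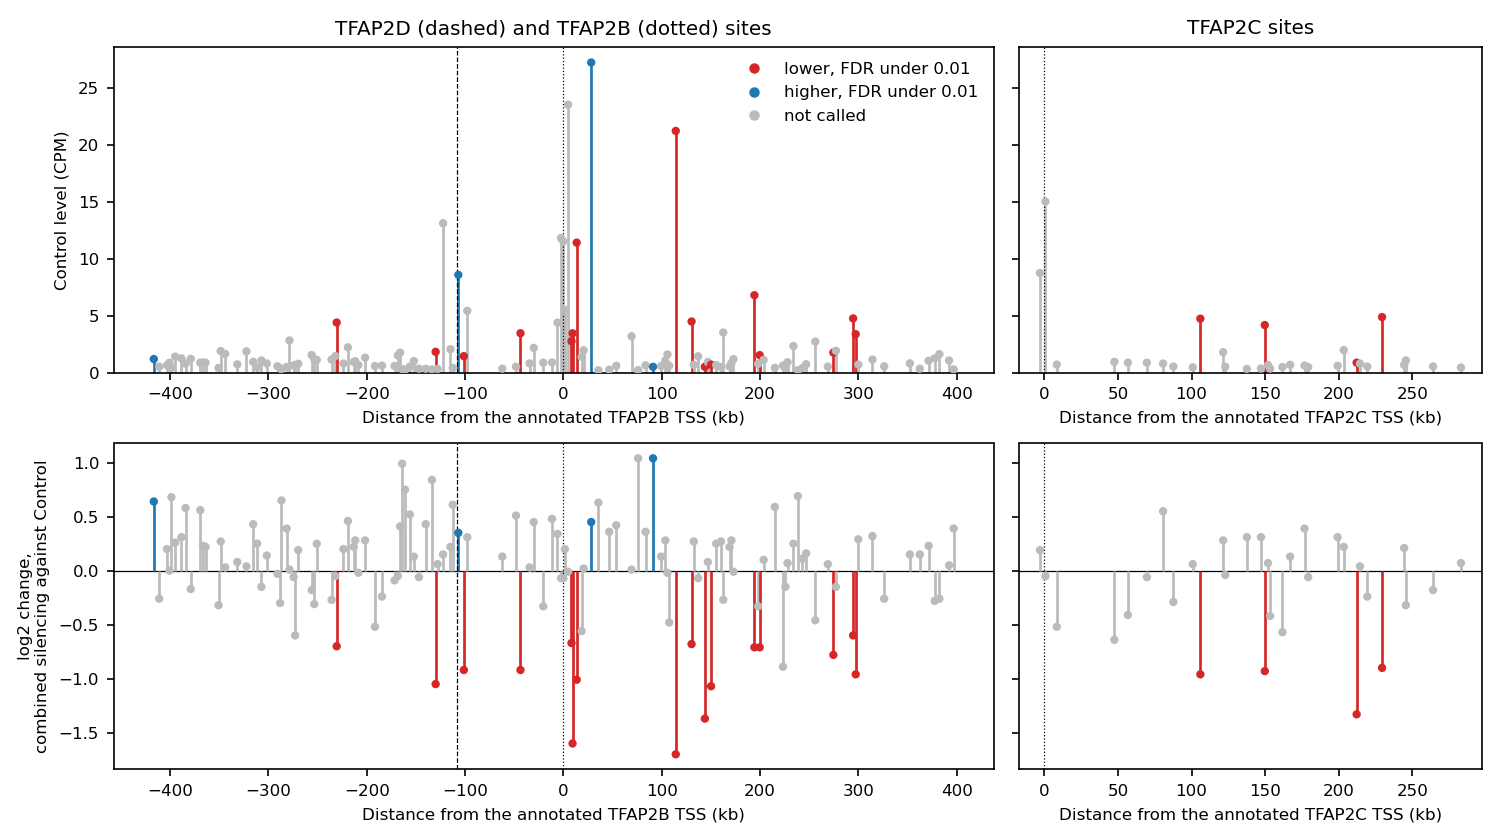
AP-2 sites along the TFAP2D and TFAP2B region (left) and downstream of TFAP2C (right), by distance in kb from the TSS. Upper plots give the mean Control level in CPM and lower plots the log2 change of the 2 combinations against Control, with 1 line and point per tested site, coloured by call. Sites of TFAP2B called lower lay downstream of its TSS except for -43.7 kb, and those nearest the TSS of TFAP2B and TFAP2C were not called.

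Combined silencing of ARID1A and ARID1B was compared with Control to ask which AP-2 sites depend on an intact BAF complex. Accessibility fell at 21 of 170 tested AP-2 sites (12.4%) and rose at 4 (2.35%), as the mean of the 2 combinations (edgeR quasi-likelihood test, false discovery rate (FDR) under 0.01 over all sites). Across all tested sites, 10.3% were lower and 3.43% higher. The share of lower AP-2 sites was near this background. Taken singly, shARID1A/B.2.3 lowered 19 AP-2 sites and raised 2 (11.2% and 1.18%, against 10.4% and 2.85% of all sites), and shARID1A/B.4.2 lowered 16 and raised 10 (9.41% and 5.88%, against 7.37% and 3.97%). With libraries scaled on promoter sites, 30 AP-2 sites were lower and 1 higher, and over all sites 56569 were lower and 2469 higher, against 36610 and 12247 in the scaling used here. TFAP2B held 13 of the lower sites and 2 of the higher ones, TFAP2C 4 lower, TFAP2D 3 lower and 2 higher, TFAP2E 1 lower, and 0 of the 4 TFAP2A sites was called by edgeR or by DESeq2 (1 of the 4 at an unadjusted p under 0.05). The median log2 change of the AP-2 sites was 0.06, beside 0.03 over all sites. Among sites of at least 2 CPM in Control, a choice that uses the Control level itself, 36.8% of 38 AP-2 sites were lower and 5.26% higher, against 26.9% and 9.48% of all such sites. Of the 107 AP-2 sites over 100 kb from the TSS 13.1% were lower, against 9.63% of all such sites, and of the 63 within this distance 11.1%, against 10.6%.

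The site TFAP2B +114 kb, an intergenic region at chr6:50935184-50937328, had the smallest p-value of the AP-2 sites. It measured 19.5, 23.6 and 20.3 CPM in the Control libraries, 4.89, 5.37 and 5.36 CPM with shARID1A/B.2.3 and, for shARID1A/B.4.2, 7.39, 8.38 and 8.63 CPM. Every combination library lay below every Control library. The log2 change was -1.70 (SE 0.09, FDR = 2.68e-30), a level 3.25-fold lower than in Control. All 6 libraries of the ARID1A shRNAs and all 6 of the ARID1B shRNAs also lay below the Control libraries at this site, but those of shARID1A.4 (19.3, 18.8 and 19.1 CPM) were close to the lowest of them, and shARID1A.4 was not called against Control.

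Inside the third intron of TFAP2B, counted on the isoform with 6 introns in the annotation, 3 sites were called lower. TFAP2B +9.29 kb (chr6:50831150-50831477) had 3.37, 3.82 and 3.17 CPM in Control, 0.919, 0.674 and 0.967 CPM with shARID1A/B.2.3 and, for shARID1A/B.4.2, 1.34, 1.66 and 1.72 CPM, a log2 change of -1.60 (SE 0.16, FDR = 1.29e-14). TFAP2B +13.5 kb (chr6:50834454-50836530) had 11.6, 12.2 and 10.3 CPM in Control, 5.06, 5.51 and 5.80 CPM with shARID1A/B.2.3 and, for shARID1A/B.4.2, 6.09, 5.25 and 6.03 CPM, a change of -1.01 (SE 0.10, FDR = 1.47e-14). The combinations did not overlap Control at either site. TFAP2B +8.18 kb (chr6:50830090-50830327) was lower by 0.67 on the log2 scale (SE 0.15, FDR = 0.000361) as the mean of the combinations, but was not called for shARID1A/B.4.2 (-0.12, SE 0.17), whose libraries overlapped Control. The combinations differed by 1.11 (SE 0.19, FDR = 6.01e-06): the level was 1.16 ± 0.136 CPM (SD, n = 3) with shARID1A/B.2.3, 2.53 ± 0.274 with shARID1A/B.4.2 and 2.75 ± 0.23 in Control.

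Further from the gene, TFAP2B +194 kb (chr6:51015275-51017205) fell from 6.79 ± 0.364 CPM in Control to 4.07 ± 0.8 CPM with shARID1A/B.2.3 and 4.13 ± 0.448 CPM with shARID1A/B.4.2 (SD, n = 3), a log2 change of -0.71 (SE 0.11). A pair of adjacent sites, TFAP2B +295 kb and +297 kb, fell by 0.60 (SE 0.12) and 0.96 (SE 0.16) on the log2 scale. Upstream of the gene, TFAP2B -43.7 kb (chr6:50777579-50779146) fell by 0.92 (SE 0.16, FDR = 1.33e-06), from 3.45 ± 0.532 CPM in Control to 1.82 ± 0.127 and 1.83 ± 0.135 CPM with the 2 combinations. The remaining lower TFAP2B sites were +130 kb, +144 kb, +150 kb, +200 kb and +275 kb, with log2 changes from -1.37 to -0.68 as the mean of the combinations. Taken singly, shARID1A/B.2.3 was called at +130 kb and +275 kb, shARID1A/B.4.2 at +144 kb, and neither at +150 kb and +200 kb. The calls of the mean at +144 kb, +150 kb, +200 kb and +275 kb were each lost when single libraries were left out. Of these, +144 kb and +150 kb were weak, at 0.507 and 0.697 CPM in Control, a mean of 9.52 and 12.3 reads per library over all groups.

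In contrast, TFAP2B +28.3 kb (chr6:50849167-50851393), among the most accessible TFAP2B sites, rose. It had 26.9, 26.7 and 27.9 CPM in Control, 30.5, 33.8 and 30.8 CPM with shARID1A/B.2.3 and, for shARID1A/B.4.2, 43.2, 45.2 and 42.4 CPM, a log2 change of 0.45 (SE 0.07, FDR = 5.09e-07). All 6 combination libraries were above Control. Of the combinations, the rise was called for shARID1A/B.4.2 alone (0.68, SE 0.08), and they differed from each other by 0.46 (SE 0.08, FDR = 2.03e-05). All 6 libraries of the ARID1A shRNAs and all 6 of the ARID1B shRNAs also lay above Control. Among single shRNAs the rise was called with shARID1A.4 alone (0.51). It was also called for the mean of the ARID1A shRNAs (0.33). Both of these calls were lost with libraries scaled on promoter sites. The other higher TFAP2B site, +91.1 kb, was weak (0.504 ± 0.313 CPM in Control, SD, n = 3), with a change of 1.04 (SE 0.27) that was not called without Control replicate 1 (0.79) or 3 (0.82), with libraries scaled on promoter sites (0.80) or by DESeq2.

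**Figure D2:**
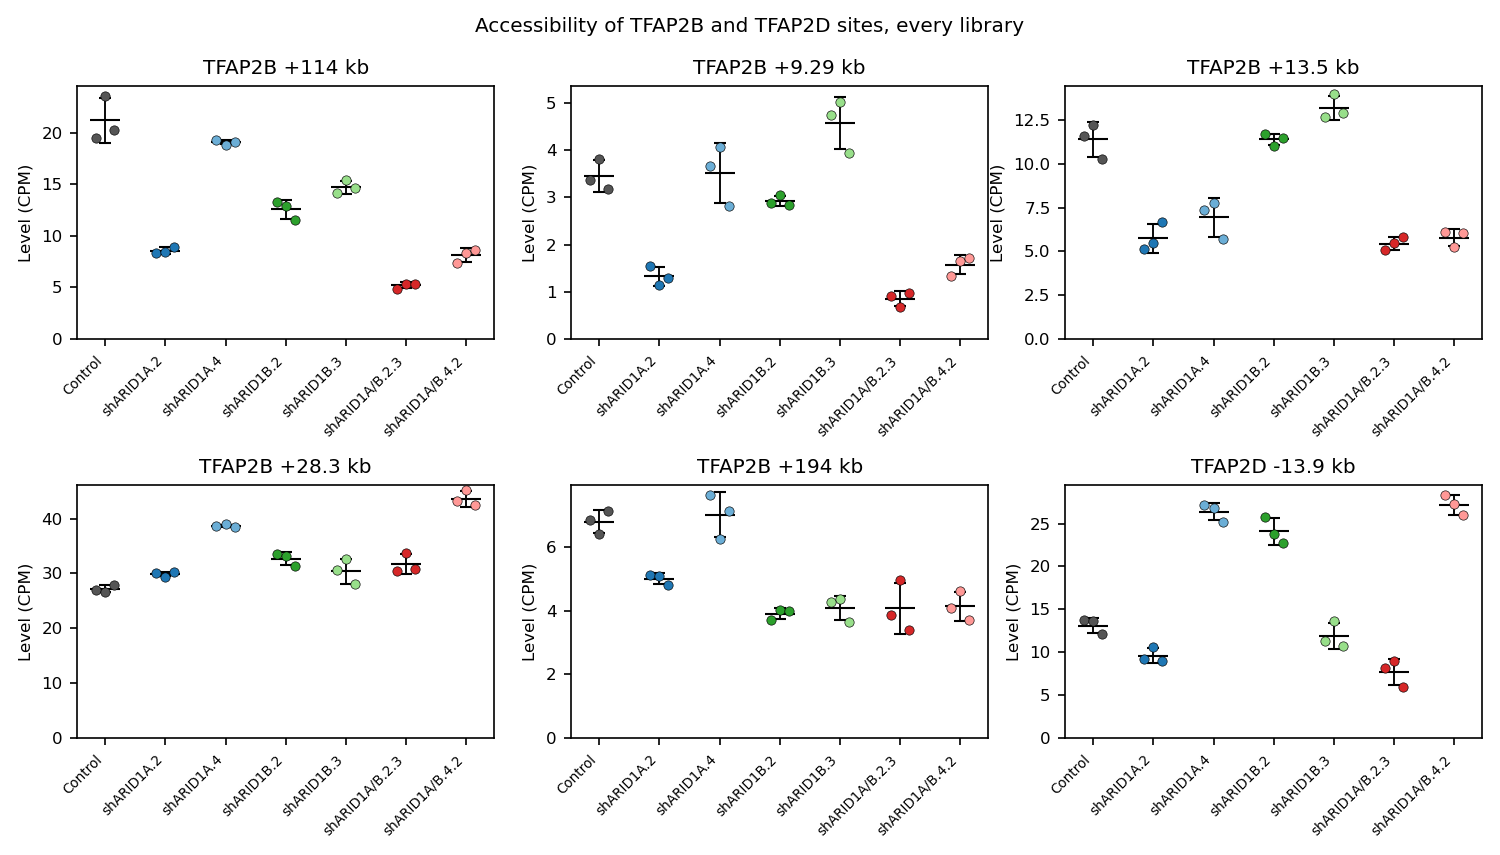
Level in CPM of 6 distal TFAP2B and TFAP2D sites in each of the 21 libraries, by group. Points are libraries, horizontal marks are group means and bars are 1 SD (n = 3); all axes start at 0. TFAP2B +114 kb is lowest in the 2 combinations, and TFAP2D -13.9 kb is high in shARID1A.4, shARID1B.2 and shARID1A/B.4.2 only.

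The 4 lower TFAP2C sites all lay over 100 kb downstream of the TSS, on chromosome 20. TFAP2C +106 kb (chr20:56734835-56735789) fell from 4.73 ± 1.11 CPM in Control to 2.20 ± 0.382 and 2.76 ± 0.223 CPM with shARID1A/B.2.3 and shARID1A/B.4.2 (SD, n = 3), a log2 change of -0.96 (SE 0.14, FDR = 9.32e-09). TFAP2C +150 kb and +229 kb fell by 0.93 and 0.90 (SE 0.13 each). TFAP2C +212 kb changed by -1.33 (SE 0.30), from 0.87 ± 0.207 CPM in Control, a call that was lost without Control replicate 1 (-1.14). In all 4, every combination library lay below every Control library.

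Near TFAP2D, the intergenic sites -122 kb and -21.5 kb and the intronic site +7.23 kb fell by 0.70 (SE 0.14), 1.05 (SE 0.19) and 0.92 (SE 0.21) on the log2 scale, the last of which was not called without Control replicate 1 (-0.83). The exonic site TFAP2D +1.61 kb rose by 0.35 (SE 0.10), from 8.57 ± 0.903 CPM in Control to 10.2 ± 0.267 and 11.7 ± 0.441 CPM, and this was not called without Control replicate 1 (0.28) or 3 (0.33) or with libraries scaled on promoter sites (0.11). The second higher TFAP2D site, -308 kb, was beyond the 24 sites described by rank of p and changed by 0.64. At TFAP2E, the intronic site +12.6 kb (chr1:35578030-35578895) fell by 1.01 (SE 0.19, FDR = 1.18e-05), from 2.13 ± 0.367 CPM to 1.16 ± 0.0608 and 0.962 ± 0.172 CPM. Of 31 TFAP2C and 4 TFAP2E sites, 0 were called higher by edgeR or DESeq2, with 1 and 0 at an unadjusted p under 0.05. Beside the 3.43% of all tested sites called higher, these sites are too few to compare shares.

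The sites at the starts of the genes were not called after combined silencing. The TFAP2A start sites +0.144 kb and -6.63 kb changed by 0.05 (95% interval -0.10 to 0.21) and -0.03 (-0.28 to 0.22) on the log2 scale. TFAP2B -0.129 kb, in the annotated promoter, and TFAP2B -2.4 kb, which covers the RefSeq start, changed by -0.07 (-0.25 to 0.11) and -0.07 (-0.25 to 0.11). TFAP2C +0.723 kb changed by -0.05 (-0.23 to 0.12) and TFAP2E +7.49 kb, which covers the RefSeq start of TFAP2E, by 0.12 (-0.15 to 0.40). The RefSeq promoter window of TFAP2D overlapped no consensus site. Of all promoter sites, 33.4% were higher, against 0 of the 4 AP-2 promoter sites, which are too few to compare shares. Neither edgeR at an unadjusted p under 0.05 nor DESeq2 called any of the 4 (0 and 0). With libraries scaled on promoter sites, which moved the median of all sites to -0.20, TFAP2B -0.129 kb (-0.31) and TFAP2C +0.723 kb (-0.29) were called lower and the changes of TFAP2A +0.144 kb and TFAP2E +7.49 kb turned to -0.18 and -0.11. None of the 5 RefSeq promoter windows of TFAP2A, TFAP2B, TFAP2D and TFAP2E held the letters GCCNNNGGC, which 23.2% of 35116 promoter windows held. These windows are few and short. Over their whole length, the start sites TFAP2A +0.144 kb and TFAP2C +0.723 kb held 7 such matches each. TFAP2A -6.63 kb, TFAP2B -0.129 kb and TFAP2E +7.49 kb held 1 each, and TFAP2B -2.4 kb held 0.

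Among the start sites, TFAP2B -0.129 kb was altered by an individual shRNA, and TFAP2E +7.49 kb differed between the combinations. TFAP2B -0.129 kb fell with shARID1A.2, from 10.6, 12.1 and 11.7 CPM in Control to 7.79, 8.20 and 7.68 CPM, a log2 change of -0.54 (SE 0.11, FDR = 0.000204). With shARID1A.4 it measured 14.6, 14.5 and 12.5 CPM, and the 2 ARID1A shRNAs differed by 0.82 (SE 0.11, FDR = 3.11e-08). The combinations differed in the same direction, by 0.50 (SE 0.11), with 9.91, 9.53 and 8.04 CPM for shARID1A/B.2.3 and 13.0, 13.3 and 12.8 CPM for shARID1A/B.4.2. At TFAP2E +7.49 kb the combinations differed by 0.68 (SE 0.16, FDR = 0.00103). Neither difference between combinations was called with libraries scaled on promoter sites.

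**Figure D3:**
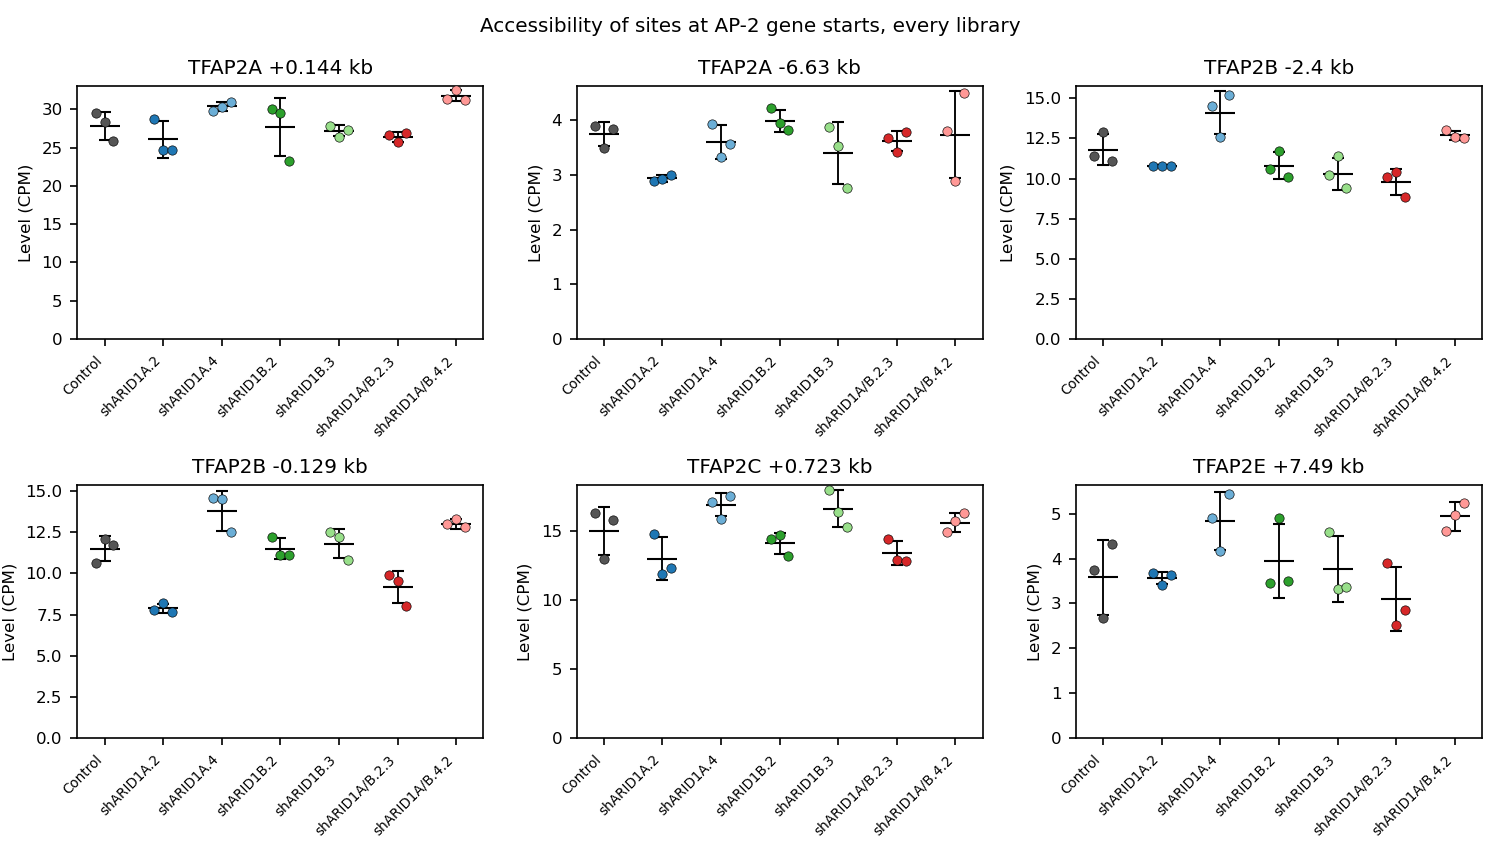
Level in CPM of 6 sites at AP-2 gene starts in each of the 21 libraries, by group. Points are libraries, horizontal marks are group means and bars are 1 SD (n = 3); all axes start at 0. At TFAP2B -0.129 kb the libraries of shARID1A.2 and shARID1A/B.2.3 lie below Control and those of shARID1A.4 and shARID1A/B.4.2 above it, and at TFAP2A -6.63 kb those of shARID1A.2 lie below Control without being called.

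Silencing of each gene alone was then set against Control. As the mean of 2 shRNAs against Control, ARID1A silencing lowered 13 sites and raised 2 of 170 (7.65% and 1.18%, against 5.37% and 1.67% of all sites). ARID1B silencing lowered 7 and raised 1 (4.12% and 0.588%, against 3.53% and 1.39%). By single shRNA, shARID1A.2 lowered 13 AP-2 sites and raised 0 (7.65% and 0%, against 4.54% and 0.834%), where edgeR gave 10 higher at an unadjusted p under 0.05 and DESeq2 called 0. For shARID1A.4 the counts were 9 lower and 5 higher (5.29% and 2.94%, against 4.17% and 2.28%), for shARID1B.2 3 and 4 (1.76% and 2.35%, against 1.84% and 1.34%) and for shARID1B.3 8 and 3 (4.71% and 1.76%, against 4.88% and 3.12%). TFAP2B +114 kb fell with both genes, by 0.73 (SE 0.09) for ARID1A and by 0.64 (SE 0.08) for ARID1B. The ARID1A value averages a change of -1.30 (SE 0.10) with shARID1A.2 and the uncalled -0.15 (SE 0.10) with shARID1A.4, which differed by 1.15 from each other. TFAP2B -43.7 kb also fell with both, by 0.80 and 0.89 (SE 0.16 each), and was called with each of the 4 single shRNAs. Of these calls, that with shARID1B.3 held under every alternative run, whereas the other 3 and that of their ARID1A mean were each lost without Control replicate 2.

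The genes were also compared directly. Between ARID1A and ARID1B silencing, 6 AP-2 sites were lower with ARID1A and 1 was higher (3.53% and 0.588%, against 3.69% and 1.05% of all sites). TFAP2B +13.5 kb had 5.76 ± 0.825 and 6.94 ± 1.1 CPM with shARID1A.2 and shARID1A.4, but 11.4 ± 0.333 and 13.2 ± 0.682 CPM with shARID1B.2 and shARID1B.3 (SD, n = 3), beside 11.4 ± 0.983 CPM in Control. The difference between the genes was -0.95 (SE 0.08, FDR = 8.73e-16), and the libraries of both combinations ran from 5.06 to 6.09 CPM at this site. TFAP2B +194 kb showed the opposite order: 3.90 ± 0.179 and 4.09 ± 0.383 CPM with the ARID1B shRNAs, and 5.0 ± 0.169 and 7.01 ± 0.712 CPM with the ARID1A shRNAs, a difference of 0.56 (SE 0.10, FDR = 9.22e-06). Sites of the same gene thus differed in the shRNAs with which they fell.

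Combined silencing was next set against the 4 single-shRNA groups. It lowered 11 AP-2 sites and raised 1 (6.47% and 0.588%, against 6.85% and 0.969% of all sites). TFAP2B +114 kb was lower by 1.02 (SE 0.07, FDR = 1.07e-21) and TFAP2B +9.29 kb by 1.31 (SE 0.12, FDR = 1.15e-14) than the mean of the 4 single-shRNA groups. At +114 kb the shARID1A.2 libraries (8.38, 8.41 and 8.94 CPM) overlapped those of shARID1A/B.4.2. The departure from additivity asks whether the combined log2 change differs from what the ARID1A and ARID1B log2 changes add up to. TFAP2B +9.29 kb departed by -1.02 (SE 0.20, FDR = 0.0011), the 1 AP-2 site called of 170 (0.588%; 1 to 4 when libraries were left out and 3 with total counts, without the filter or with a replicate block), beside 0.376% of all sites called in this direction. In the other direction edgeR and DESeq2 called 0 AP-2 sites, with 7 at an unadjusted p under 0.05, beside 0.14% of all sites called. With shARID1B.2, shARID1B.3 and shARID1A.4 this site had 2.93 ± 0.103, 4.58 ± 0.561 and 3.52 ± 0.637 CPM (SD, n = 3), none of them called against Control. With shARID1A.2 it was lower, at 1.33 ± 0.202 CPM. The departure was not called with libraries scaled on promoter sites (FDR = 0.0101). For TFAP2B +114 kb the departure was -0.34 (SE 0.12, FDR = 0.135), and it was not called.

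**Figure D4:**
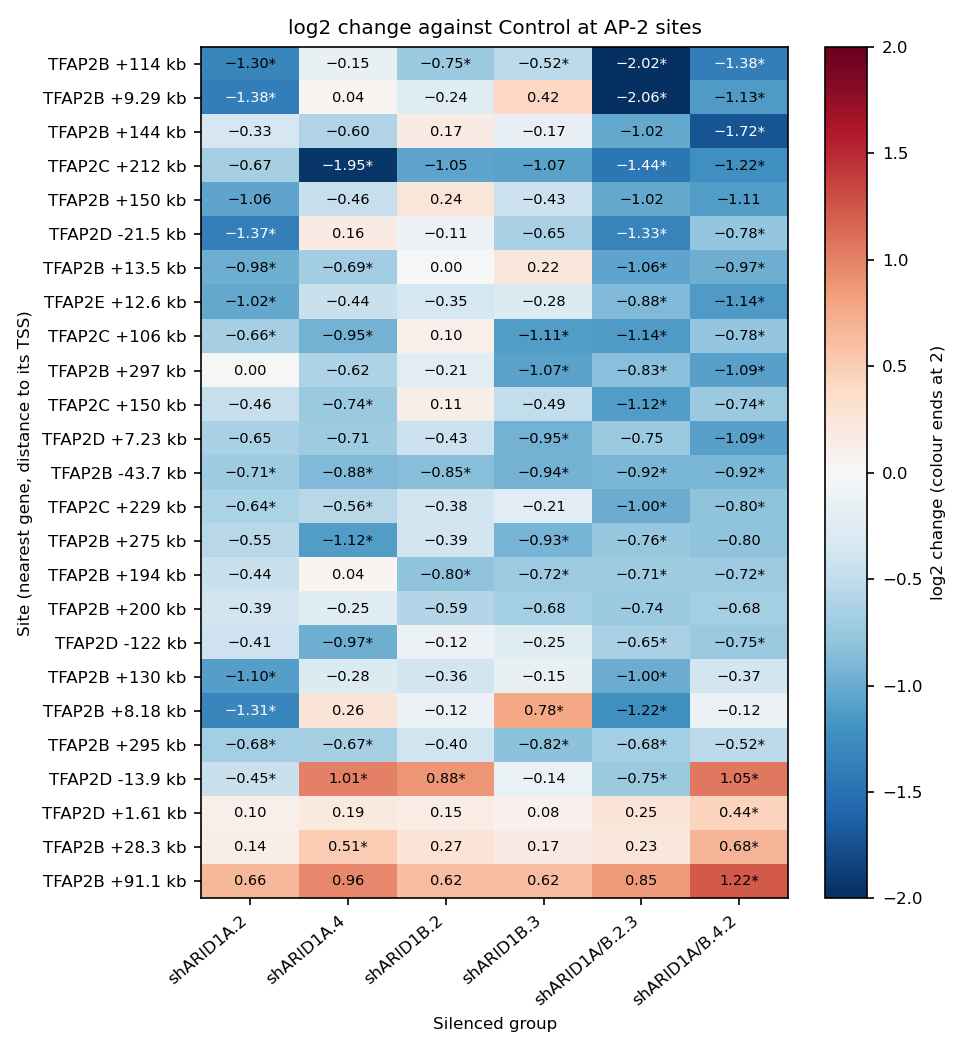
The log2 change against Control, printed in each cell, of 24 AP-2 sites called after combined silencing and of TFAP2D -13.9 kb, for each silenced group, ordered by the mean of the combinations. Asterisks mark FDR under 0.01 and colours end at a change of 2 in either direction. The falls at TFAP2B +8.18 kb, +9.29 kb and TFAP2D -21.5 kb with shARID1A.2 are not seen with shARID1A.4.

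The shRNAs of 1 gene did not always act alike at these sites. Between shARID1A.4 and shARID1A.2, 1 AP-2 site was lower and 10 were higher (0.588% and 5.88%, against 0.737% and 1.84% of all sites). Between shARID1B.3 and shARID1B.2, 9 were lower and 6 higher (5.29% and 3.53%, against 4.25% and 2.96%). Between shARID1A/B.4.2 and shARID1A/B.2.3, 0 were lower and 11 higher (0% and 6.47%, against 1.43% and 3.79%). With libraries scaled on promoter sites 0 were lower and 5 higher, and over all sites the split turned from 5113 lower and 13521 higher to 10505 lower and 6547 higher. Without shARID1A/B.4.2 replicate 3, 6 AP-2 sites were higher. At an unadjusted p under 0.05 edgeR gave 10 lower of 170, and DESeq2 called 0 lower.

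TFAP2D -13.9 kb (chr6:50698666-50700633, intergenic) had the smallest p-value in these comparisons of combinations and of ARID1A shRNAs. It measured 13.7, 13.6 and 12.1 CPM in Control. It measured 9.24, 10.6 and 8.98 CPM with shARID1A.2, against 27.2, 26.8 and 25.2 CPM with shARID1A.4. It measured 25.8, 23.8 and 22.7 CPM with shARID1B.2, against 11.3, 13.6 and 10.7 CPM with shARID1B.3. The site was thus high with 1 shRNA of each gene and at or below Control with the other. The combinations followed the shRNAs named in them: shARID1A/B.4.2 gave 28.3, 27.3 and 26.0 CPM, whereas shARID1A/B.2.3 gave 8.11, 8.92 and 5.98 CPM. Against Control the former rose by 1.05 (SE 0.10, FDR = 2.91e-14) and the latter fell by 0.75 (SE 0.11, FDR = 3.28e-08), so that their mean (0.15, SE 0.09, FDR = 0.294) was not called. The difference between the combinations was 1.80 (SE 0.11, FDR = 2.56e-25). It was not tested what in the shRNAs this difference follows.

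TFAP2B +8.18 kb and +9.29 kb also split by shRNA. At +8.18 kb, shARID1A.2 gave 1.11 ± 0.341 CPM and shARID1A.4 3.29 ± 0.194 CPM, and shARID1B.3 (4.71 ± 0.216 CPM) was above Control (SD, n = 3). TFAP2C +106 kb split between the ARID1B shRNAs, with 5.08 ± 0.435 CPM for shARID1B.2 and 2.15 ± 0.377 CPM for shARID1B.3, a difference of -1.21 (SE 0.16, FDR = 2.24e-09). For such sites the mean of 2 shRNAs hides a spread between shRNAs that is larger than the spread between replicates.

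Summed over all its sites, with those removed by the filter included, TFAP2B had 201 ± 6.05 CPM in Control, 167 ± 2.97 with shARID1A.2 and 214 ± 5.79 with shARID1A.4 (SD, n = 3). The combinations had 162 ± 4.07 (2.3) and 199 ± 3.42 CPM (4.2), the latter within the Control range of 196 to 208 CPM. TFAP2D had 86.8 ± 6.36 CPM in Control and 87.5 ± 11.6 and 108 ± 3.94 CPM with combinations 2.3 and 4.2. The single site TFAP2D -13.9 kb held 13.1, 7.67 and 27.2 CPM of these sums. With single shRNAs the TFAP2D sum was 84.7 CPM (shARID1A.2), 101 (shARID1A.4), 102 (shARID1B.2) and 85.6 (shARID1B.3). TFAP2A ran from 38.1 to 44.6 CPM, TFAP2C from 49.9 to 57.2 CPM and TFAP2E from 6.91 to 10.3 CPM over the 7 group means. With sums over tested sites alone, the genes most like TFAP2B over the 7 group means were CDCP2 (Pearson r = 0.997), LOC728755 (0.988) and SHISA3 (0.988). For TFAP2D they were C6orf141 (0.989), CYTH4 (0.984) and BACH1 (0.981). These were picked from 19004 genes over 7 points that share libraries, and are given as a description.

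Genes that work with AP-2 proteins were examined in the same contrast of combined silencing against Control. Of 75 tested sites of 10 AP-2 cofactors and inhibitors, 9 were lower and 7 higher (12.0% and 9.33%, median log2 change 0.00), beside 10.3% and 3.43% of all sites. The higher ones included promoter sites of EP300 (0.52, SE 0.09) and CREBBP (0.60, SE 0.10), acetyltransferases that CITED proteins bridge to AP-2, in a class of sites of which 33.4% were higher. A distal site of CITED2, a co-activator, fell by 0.83 (SE 0.12), the 1 site called of its 16. The site of smallest p of KCTD15, an inhibitor of AP-2 activity, fell by 0.90 (SE 0.15). Of the 9 tested sites of KCTD15, 2 were lower and 2 higher.

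Of 200 tested sites of 8 AP-2 target genes, 16 were lower and 4 higher (8.0% and 2.0%, median -0.04, beside 10.3% and 3.43% of all sites). ESR1 alone held 135 of these sites, with 9 of the lower ones and 0 of the higher ones, so the shares rest mostly on that gene. DBH, the enzyme that makes noradrenaline, had 3 of 5 sites lower, the strongest by 0.79 (SE 0.17), and the receptor gene KIT had 1 lower and 2 higher of 38. Of 119 tested sites of 8 neural plate border genes, 20 were lower and 2 higher (16.8% and 1.68%, median -0.15, beside the same 10.3% and 3.43%). MSX2, a homeobox factor of the plate border, had 8 of 18 sites lower, the strongest by 0.86 (SE 0.12), whereas the sites of smallest p of PAX3 and ZIC1 changed by -0.21 (FDR = 0.161) and 0.18 (FDR = 0.336). The largest of the named changes in this list was at a site of MSX1, at -43097 bases from its TSS, which fell by 2.13 (SE 0.22, FDR = 1.53e-13). It was the 1 site called of the 14 tested for MSX1, whose median log2 change was 0.08.

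Among the 21 lower AP-2 sites, 5 held AP-1 letters in the central 300 bases (23.8%), against 14.3% of all lower sites and 10.9% of all consensus sites, and 3 held GATA letters (14.3%), against 24.7% of all lower sites. A single lower AP-2 site held AP-2 letters (4.76%), against 9.25% of all lower sites. The median GC content of the whole site was 43.7% in lower AP-2 sites and 46.7% in all AP-2 sites. With 21 sites these shares rest on few matches.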

How the data were processed

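Per the labels, the authors aligned ATAC-seq reads of SK-N-BE(2) cells to GRCh38. Not given in the sources used here are the aligner, the peak caller, their versions and whether reads were shifted for Tn5. Raw read counts of each library at 367900 consensus sites were deposited, with a HOMER annotation of the nearest gene. The deposited tables also hold normalized counts and the authors' DESeq2 comparisons, which were not used. Control counts did not differ from table to table.

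Raw counts of all 21 libraries entered 1 model in edgeR 4.0.16 under R 4.3.3 (quasi-likelihood test, TMM scaling, filterByExpr with a minimum count of 10, Benjamini-Hochberg adjustment over 357029 tested sites; 10871 were removed). A site was called at FDR under 0.01. The script was tested on simulated data. Levels are CPM on the TMM-scaled library total, and intervals and SEs come from the model. TMM scaling takes most sites as unchanged. Replicates differed by more than counting noise, with chi-square values per degree of freedom of 1.08 to 2.47, so that each library counted once. Alternatives were other scalings, no filter, DESeq2 1.42.0, other thresholds, only the groups compared, a block on the replicate number and leaving out each library.

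Sites described were, for each gene, that nearest the TSS and that with the highest Control level, up to 24 sites called in combined silencing by rank of p, and the site of smallest p in each other contrast if called. TFAP2A -6.63 kb and TFAP2B -2.4 kb were added after their values were seen, since they cover gene starts. The family, its partner lists and markers were chosen with earlier results of these data known; some list genes are not reported here by name. Sequences were read from GRCh38, and promoter windows (GRCh38.p14) are from RefSeq; 4 of the 5 genes matched.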

Additional observations from a re-analysis of the deposited data

Results flagged for a closer look

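Each difference here is between 2 shRNAs, or 2 combinations, against the same target, tested directly (edgeR quasi-likelihood test, FDR under 0.01 over all sites), and is given on the log2 scale. Between shARID1A.4 and shARID1A.2, accessibility was higher with shARID1A.4 at TFAP2B +8.18 kb (1.57), TFAP2D -21.5 kb (1.53), TFAP2D -13.9 kb (1.46), TFAP2B +9.29 kb (1.43), TFAP2B +114 kb (1.15), TFAP2B -0.129 kb (0.82), TFAP2B +130 kb (0.82) and TFAP2B +28.3 kb (0.37). Between shARID1B.3 and shARID1B.2, it was lower with shARID1B.3 at TFAP2C +106 kb (-1.21), TFAP2D -13.9 kb (-1.01), TFAP2B +297 kb (-0.86) and TFAP2C +150 kb (-0.59), and higher at TFAP2B +8.18 kb (0.90) and TFAP2B +9.29 kb (0.66). Between shARID1A/B.4.2 and shARID1A/B.2.3, it was higher with the former at TFAP2D -13.9 kb (1.80), TFAP2B +8.18 kb (1.11), TFAP2B +9.29 kb (0.92), TFAP2E +7.49 kb (0.68), TFAP2B +114 kb (0.64), TFAP2B +130 kb (0.63), TFAP2B -0.129 kb (0.50) and TFAP2B +28.3 kb (0.46). Of these 22 differences, 14 were called under all 13 alternatives that could be run for them, and 8 were not called under 1 or more. With libraries scaled on promoter sites the calls were lost at TFAP2B +28.3 kb and +130 kb between ARID1A shRNAs, at TFAP2B +9.29 kb between ARID1B shRNAs, and at TFAP2E +7.49 kb and TFAP2B -0.129 kb, +9.29 kb and +130 kb between combinations. The difference at TFAP2C +150 kb was lost by DESeq2 and without single ARID1B libraries. Efficiency of silencing was not measured in these data, so its part in the differences was not tested.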

How the results depend on the processing

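Of 24 described sites called after combined silencing, 16 were called under every alternative run. The calls at TFAP2B +91.1 kb, +144 kb, +150 kb, +200 kb and +275 kb, TFAP2C +212 kb, TFAP2D +1.61 kb and TFAP2D +7.23 kb were lost under 1 or more, most often DESeq2 or without Control replicate 1 or 3, with log2 values that kept their sign. Among uncalled sites the sign turned, with libraries scaled on promoter sites, at TFAP2A +0.144 kb (-0.18), TFAP2D -13.9 kb (-0.08) and TFAP2E +7.49 kb (-0.11), and, without Control replicate 1, at TFAP2C +0.723 kb (0.01) and TFAP2E -1.06 kb (-0.01), and without Control replicate 2 at TFAP2E +7.49 kb (-0.03). Leaving out each library gave -0.12 to 0.01, -0.01 to 0.61 and -0.03 to 0.29 at these last 3 sites. Scaling on promoter sites moved the median of all sites from 0.03 to -0.20.

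Counts of called AP-2 sites follow in the order combined silencing, shARID1A/B.2.3, shARID1A/B.4.2, ARID1A and ARID1B silencing, each against Control, combined against single, ARID1A against ARID1B, shARID1A.2, shARID1A.4, shARID1B.2 and shARID1B.3 against Control, and shARID1A.4 against shARID1A.2, shARID1B.3 against shARID1B.2 and shARID1A/B.4.2 against shARID1A/B.2.3. With a log2 change of at least 1 they were 9, 8, 10, 1, 1, 3, 0, 6, 3, 1, 3, 5, 7 and 3. Within 100 kb of the TSS they were 10, 10, 14, 5, 2, 5, 3, 8, 6, 2 and 3 for the first 11 and 5 for the ARID1B shRNAs. By construction both count fewer sites. An FDR under 0.05 gave 14 for ARID1B, 19 for combined against single, 11 for ARID1A against ARID1B, 21, 13 and 19 for shARID1A.2, shARID1B.2 and shARID1B.3, 18 between ARID1A shRNAs and 6 for the departure from additivity. DESeq2 gave 17 for shARID1A/B.4.2, 5 for ARID1B, 4 for shARID1B.2 and 8 between ARID1B shRNAs, and scaling on promoter sites 17 for shARID1B.3 and 5 between combinations; the cause was not tested. The departure from additivity gave 2 with DESeq2 size factors, 3 with total counts and 3 without the filter.

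Leaving out each library in turn gave 17 to 27 calls for combined silencing, 18 to 20 for shARID1A/B.2.3, 16 to 21 for shARID1A/B.4.2 (16 without Control replicate 1), 11 to 15 for ARID1A, 4 to 8 for ARID1B (4 without shARID1B.3 replicate 2), 7 to 12 for combined against single (7 without shARID1A/B.4.2 replicate 2), 4 to 7 for ARID1A against ARID1B, 10 to 11, 10 to 13, 4 to 6 and 8 to 12 for the single shRNAs in the order above, 8 to 10 and 7 to 12 between the shRNAs of ARID1A and ARID1B, 6 to 11 between combinations and 1 to 4 for the departure from additivity.

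Same-numbered libraries correlated over 0.1 in 12 of 63 pairs (-0.281 to 0.471), and 12 of 21 libraries correlated best with their own number, so the numbers were not taken to pair the samples over the series. Between Control and shARID1A/B.2.3 all 3 same-numbered pairs correlated (0.173, 0.471 and 0.183), and there the replicate block gave 19 lower and 2 higher AP-2 sites, the counts without it. A replicate block gave 25 calls for combined silencing and 3 for the departure from additivity, and left the other counts within 1.5 times. At the depth here, sites under 1 CPM rest on few reads.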
